A study of Homo sapiens with 4 samples.

Results

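The Wnt pathway genes studied here were 59 protein-coding genes of 20033 in the RefSeq annotation of GRCh38. They were taken by name: every gene whose symbol is WNT, FZD, SFRP, DKK, DVL, RSPO or AXIN followed by a digit, plus LRP5, LRP6, APC, CTNNB1, GSK3B, LEF1, TCF7, TCF7L1, TCF7L2, RNF43, ZNRF3, PORCN and WLS. All named genes were found. The question was where the transcription factor SPIB was mapped at these genes by chromatin immunoprecipitation and sequencing (ChIP-seq) in H1703, an established line of human lung squamous carcinoma cells. All 4 libraries came from H1703 cells made to overexpress SPIB: an anti-FLAG M2 immunoprecipitate and an input without antibody from attached cells, and the same pair from cells in suspension. The labels' protocol names 24 h of suspension for every library, the attached pair included, so the condition label alone tells the groups apart. Each group was 1 library, so differences between conditions have no replicate check and no p-value. A library from cells without the introduced SPIB was not analysed here, and RNA was not measured, so neither the activity of the Wnt genes nor the marker genes of the cell line could be read.

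Wnt ligands are secreted glycoproteins that carry a lipid added by the acyltransferase PORCN and travel to the cell surface with the carrier WLS. They bind Frizzled receptors and the co-receptors LRP5 and LRP6, which recruit Dishevelled (DVL) and disable a destruction complex built on AXIN, APC and the kinase GSK3B. Beta-catenin, the product of CTNNB1, then escapes degradation and acts in the nucleus with the TCF and LEF1 factors. SFRP and DKK proteins are secreted antagonists, whereas R-spondins (RSPO) protect Frizzled from the ubiquitin ligases RNF43 and ZNRF3.

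A peak was assigned to a gene when its summit, the position of highest tag pile-up, lay within the annotated span or within 5 kb of it. In suspended cells 16 of the 59 Wnt genes had a peak (27.1%, Clopper-Pearson 95% interval 16.4 to 40.3). Among all protein-coding genes the share was 28.6%, so the share of Wnt genes with a peak was near that of genes in general. In attached cells DVL1 was the member with a peak, 1 of 59 (1.69%, 0.0429 to 9.09), where all genes gave 1.86%. The whole lists held 462 attached and 9024 suspended peaks, from 21108364 and 20766909 filtered ChIP tags, and 66.0% of the attached peaks had an authors' false discovery rate (FDR) of 100%. Attached tags at sites outside the attached list were not analysed here, so a missing attached peak does not show an unbound site.

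The promoter sequences that carried a peak are shown first, because there a peak overlapped a set window at the start of a Wnt gene itself, wherever its summit lay. Of the 43 members with a promoter entry in RefSeq (GRCh38.p14, the assembly of the peaks' hg38), 3 had a suspended peak over the window from 250 bp before to 50 bp after a listed start: GSK3B, FZD1 and SFRP5. That was 3 of the 53 windows of these genes (5.66%, 1.18 to 15.7), against 7.96% of all windows of protein-coding genes. Each is printed 5′ to 3′ along the gene from 250 bp before the start, 280 bases in all. Capitals mark GGAA, the core that ETS factors such as SPIB recognise, or its reverse complement TTCC. GSK3B is at chr3:120094418-120094697 (minus strand), FZD1 at chr7:91264183-91264462 (plus strand) and SFRP5 at chr10:97771970-97772249 (minus strand).
GSK3B: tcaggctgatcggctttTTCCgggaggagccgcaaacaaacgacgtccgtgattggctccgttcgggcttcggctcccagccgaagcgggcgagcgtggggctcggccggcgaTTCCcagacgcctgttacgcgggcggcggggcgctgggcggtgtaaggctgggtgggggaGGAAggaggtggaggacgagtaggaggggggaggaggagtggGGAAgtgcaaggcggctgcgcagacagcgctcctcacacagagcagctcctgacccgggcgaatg
FZD1: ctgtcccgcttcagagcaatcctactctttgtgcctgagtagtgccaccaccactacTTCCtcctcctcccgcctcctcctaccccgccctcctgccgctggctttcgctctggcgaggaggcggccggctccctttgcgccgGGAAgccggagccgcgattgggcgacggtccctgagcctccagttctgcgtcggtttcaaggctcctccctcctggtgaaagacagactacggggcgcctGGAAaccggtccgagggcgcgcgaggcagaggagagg
SFRP5: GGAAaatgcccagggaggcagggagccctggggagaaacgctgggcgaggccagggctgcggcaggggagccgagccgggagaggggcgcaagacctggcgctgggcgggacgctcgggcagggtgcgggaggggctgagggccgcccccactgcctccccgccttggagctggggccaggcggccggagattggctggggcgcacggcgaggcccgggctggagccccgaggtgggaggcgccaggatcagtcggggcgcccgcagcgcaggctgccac

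The peaks covered 222 of these bases at GSK3B, all 280 at FZD1 and 124 at SFRP5. GGAA was present 4, 3 and 1 times on either strand. At GSK3B the GGAA nearest to the summit began 35 bp before the start, and the summit lay 28 bp before the start. At FZD1 the nearest began 7 bp before the start, with the summit 19 bp after it. At SFRP5 the summit lay 261 bp before the start, outside the printed stretch, whose outermost 4 bases are GGAA. A GGAA core is too common to set these windows apart: it was in 95.1% of the 22198 windows of protein-coding genes and in 90.6% of the 53 windows of Wnt genes. The longer GGAAGT was in the GSK3B and FZD1 windows and not in that of SFRP5, against 23.9% of all windows, 35.2% of the 1768 windows under a suspended peak and 18.9% of the Wnt windows. GAGGAA gave the same split of the 3 genes, with 27.9%, 35.2% and 24.5%. TCAAAG, a core of the TCF and LEF1 motif, was in none of the 3 and in 10.9% of all windows, 9.05% of those under a peak and 3.77% of the Wnt windows. All 4 motifs were searched on both strands, and GGAA lies within GGAAGT and GAGGAA, so these counts overlap. The median GC content was 62.3% over all windows, 65.7% under suspended peaks and 67.0% in the Wnt windows, and its part in the motif shares was not tested.

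**Figure D1:**
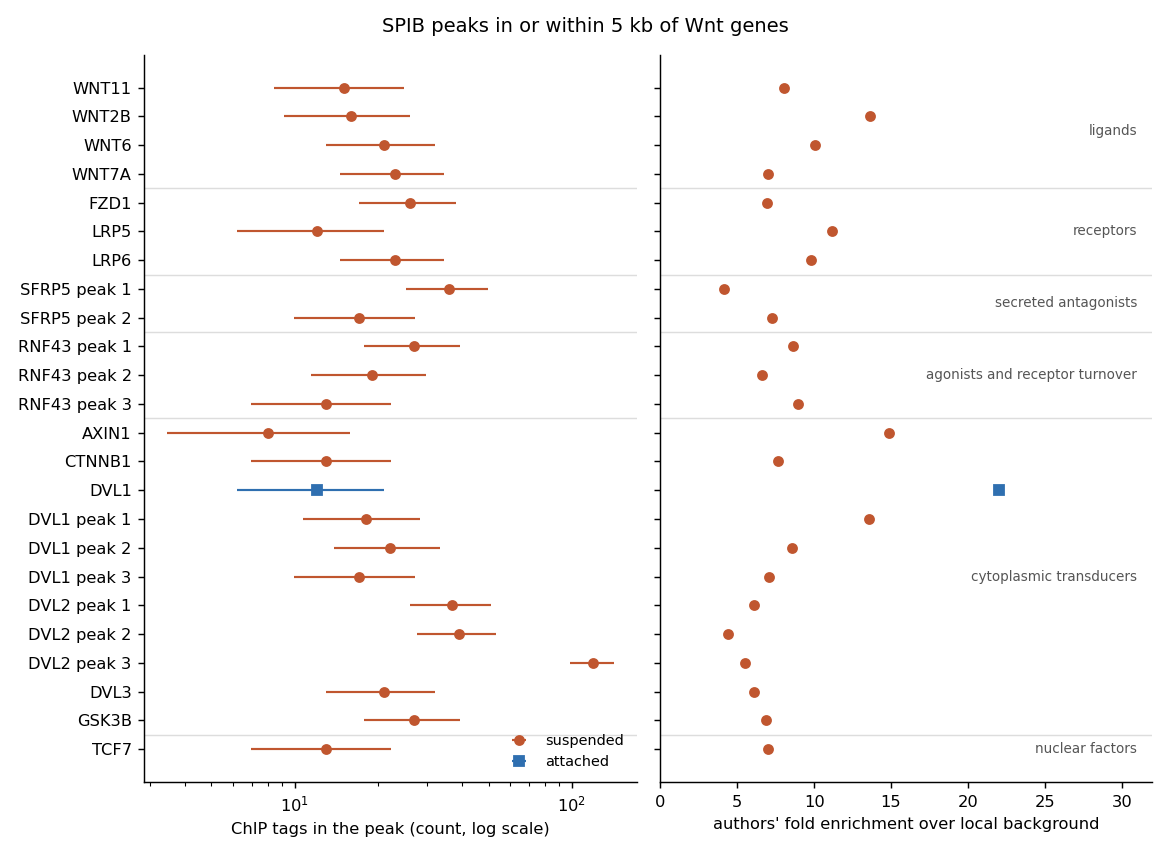
ChIP tags (left, log scale, bars are exact Poisson 95% intervals) and the authors' fold enrichment (right) of the 24 peaks assigned to Wnt genes, grouped by role; numbered peaks of a gene follow the chromosome. Suspended peaks held 8 to 119 tags, and the DVL2 peak of 119 tags stands to the right of all others.

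The 16 genes with a suspended peak shared out 23 peaks, and none of these lay in the windows of 2 members. DVL1, DVL2 and RNF43 had 3 peaks each, SFRP5 had 2 and the other 12 genes had 1. At least 2 peaks were thus found at 4 of 59 members (6.78%), against 8.32% of all protein-coding genes. The median of the 23 peaks was 21 tags (range 8 to 119) against 15 over the whole suspended list, the median width 325 bp against 252 bp, and the median authors' fold 7.28 (4.16 to 14.9) against 9.1, where the list reaches 49.16. The median FDR was 2.81% against 3.65%, and 21 of the 23 (91.3%) had an FDR of at most 5%, compared with 76.8% of the list. By the authors' score, read as minus 10 times log10 of the peak-calling p-value, 16 of the 23 lay in the upper 50% of the list and 4 in the top 10%, those of DVL2, RNF43, WNT6 and LRP6. The list was not limited to peaks near genes, and peaks assigned to other genes were not summarised apart. Whether these differences from the list are particular to Wnt genes was thus not tested. The plot of tags and fold by gene shows that the 2 measures did not rank the peaks alike: AXIN1 had the fewest tags and the highest suspended fold.

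Ligands came first in the pathway order. Of 19 WNT genes 4 had a suspended peak (21.1%, 6.05 to 45.6), against 28.6% of all protein-coding genes, and none had an attached peak. WNT6 carried the clearest of them, with 21 tags (Poisson 95% interval 13.0 to 32.1), a fold of 10.08, a score of 94.26 and an FDR of 0.49% on chromosome 2, 218860325 to 218860643. Its summit lay 573 bp inside the gene from its listed start, and WNT6 was the WNT gene with a summit within 1 kb of a gene end. WNT2B, a ligand of the canonical branch, had 16 tags (9.15 to 26.0) and the highest fold of the ligands, 13.65, with an FDR of 0.61%, at 112515636 to 112515899 on chromosome 1. That summit was 6768 bp after the nearest of its listed starts and inside the gene. WNT7A had 23 tags (14.6 to 34.5), a fold enrichment of 6.99 at 1.92% FDR, 27602 bp inside the gene (chromosome 3, 13852134 to 13852550). WNT11, known for non-canonical signalling in cell movement, had 15 tags (8.4 to 24.7), a fold enrichment of 8.02 at 4.35% FDR, with the summit 2004 bp outside the span (chromosome 11, 76184170 to 76184444). The tag intervals of these 4 peaks overlapped. The 15 ligand genes without a peak were WNT1, WNT2, WNT3, WNT3A, WNT4, WNT5A, WNT5B, WNT7B, WNT8A, WNT8B, WNT9A, WNT9B, WNT10A, WNT10B and WNT16, and the secretion genes PORCN and WLS had none either. WNT10A adjoins WNT6 on chromosome 2, and its nearest suspended summit, that of WNT6, was 13.7 kb away, and for WNT5A, the best known non-canonical ligand, it was 88.3 kb.

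At the cell surface, 3 of 12 receptor genes had a suspended peak (25.0%, 5.49 to 57.2), against 28.6% of all genes. FZD1, a short gene of 6.89 kb, was the Frizzled gene with a peak, 1 of 10. The peak held 26 tags (17.0 to 38.1) with a fold enrichment of 6.96 at 2.81% FDR on chromosome 7, 91264082 to 91264559, over the start printed above. Frizzled genes are mostly short, with a median span of 5.74 kb, whereas LRP5 and LRP6 span 151 kb each and both had a peak. The LRP6 peak held 23 tags (14.6 to 34.5) with a fold of 9.8, a score of 93.59 and an FDR of 0.48%, 64614 bp from the nearer end of the gene (chromosome 12, 12202187 to 12202485). The LRP5 peak held 12 tags (6.2 to 21.0) with a fold enrichment of 11.14 at 2.62% FDR, 134784 bp after its listed start, which lies inside the annotated span, and 1900 bp before the 3′ end of the span (chromosome 11, 68447276 to 68447486). The 3 receptor genes thus had their peaks at different places: FZD1 at its start, LRP6 far from either end and LRP5 near the 3′ end.

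Among 8 secreted antagonist genes SFRP5 had a peak in suspended cells (12.5%, 0.316 to 52.7), against 28.6% of all genes. The 4 DKK genes, SFRP1, SFRP2 and SFRP4 had no peak. Neither of the 2 SFRP5 summits lay inside the gene. The peak before the start (chromosome 10, 97772126 to 97772424) held 17 tags (9.9 to 27.2) with a fold of 7.28, but its score of 50.25 was near the bottom of the list, at percentile 1.43, and its FDR was 6.33%. The wider peak beyond the other end (97762868 to 97763447) held 36 tags (25.2 to 49.8) with a fold of 4.16, the lowest of all member peaks, and an FDR of 4.34%. Its summit lay in no protein-coding gene, 3797 bp outside SFRP5, and was also within 5 kb of ZFYVE27. In the receptor turnover group RNF43 had 3 suspended peaks, and ZNRF3 and the 4 RSPO genes had none. That was 1 of 6 (16.7%, 0.421 to 64.1), against 28.6% of all genes.

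RNF43 and the DVL genes were the members with most peaks, and for several of these peaks the nearest gene start was not that of the Wnt gene. The strongest RNF43 peak (chromosome 17, 58351823 to 58352167) held 27 tags (17.8 to 39.3), with a fold of 8.62, a score of 96.58 and an FDR of 0.53%. Its summit was 441 bp beyond the 3′ end of RNF43, inside SUPT4H1, a transcription elongation factor gene, and 142 bp after the SUPT4H1 start. The next RNF43 peak, with 19 tags (11.4 to 29.7), a fold enrichment of 6.6 at 4.66% FDR, lay at -968 bp relative to the same start and 669 bp inside RNF43. The last, with 13 tags (6.92 to 22.2), a fold enrichment of 8.96 at 2.83% FDR, lay 18204 bp inside RNF43 from that end.

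Cytoplasmic transducers were the role with the most genes to which a peak was assigned, 6 of 8 (75.0%, 34.9 to 96.8): all 3 DVL genes, AXIN1, GSK3B and CTNNB1, but not APC or AXIN2. DVL2 was counted by nearby summits, and none of its 3 peaks overlapped the gene itself. When all protein-coding genes were split by span into 5 classes of equal size, the shares of all genes in the matching classes came to 2.52 of these 8. With summits inside the span only, the count was 4 of 8, while 20.4% of all genes had such a summit, because the GSK3B and DVL2 summits lay outside. With the upper 50% of peaks by score it was also 4 of 8, without AXIN1 and CTNNB1, while 18.0% of all genes kept a peak. By the same classes of span, 5.35 of the 19 ligand genes, 3.02 of the 12 receptor genes, 2.18 of the 8 antagonist genes, 2.07 of the 6 agonist and turnover genes and 1.55 of the 4 nuclear factors would have a peak, where 4, 3, 1, 1 and 1 did. The 7 roles were compared by count only, and no test of a difference between them was made.

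DVL1 was the Wnt gene with a peak in both conditions. DVL1 spans 1335278 to 1349418 on chromosome 1, minus strand. The attached peak at 1334977 to 1335087 held 12 tags (6.2 to 21.0) with a fold enrichment of 22.01 at 82.39% FDR. The suspended peak at 1334940 to 1335204 covered it whole and held 18 tags (10.7 to 28.4), with a fold enrichment of 13.55 at 0.66% FDR. After division by the filtered ChIP tags of each library, suspended over attached was 1.52, with an exact 95% interval from counting error of 0.695 to 3.47 that takes in 1. The suspended peak was 265 bp wide and the attached 111 bp, and per kb of peak the order turned, with 67.9 tags in suspended and 108 in attached cells. The summits lay 247 bp (attached) and 179 bp (suspended) beyond the 3′ end of DVL1, inside TAS1R3, a taste receptor subunit gene, 3751 and 3819 bp after its start. The other 2 suspended peaks were inside DVL1, 1458 bp after the start with 17 tags (9.9 to 27.2), a fold enrichment of 7.07 at 3.23% FDR, and 4516 bp after it with 22 tags (13.8 to 33.3), a fold enrichment of 8.56 at 0.8% FDR.

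**Figure D2:**
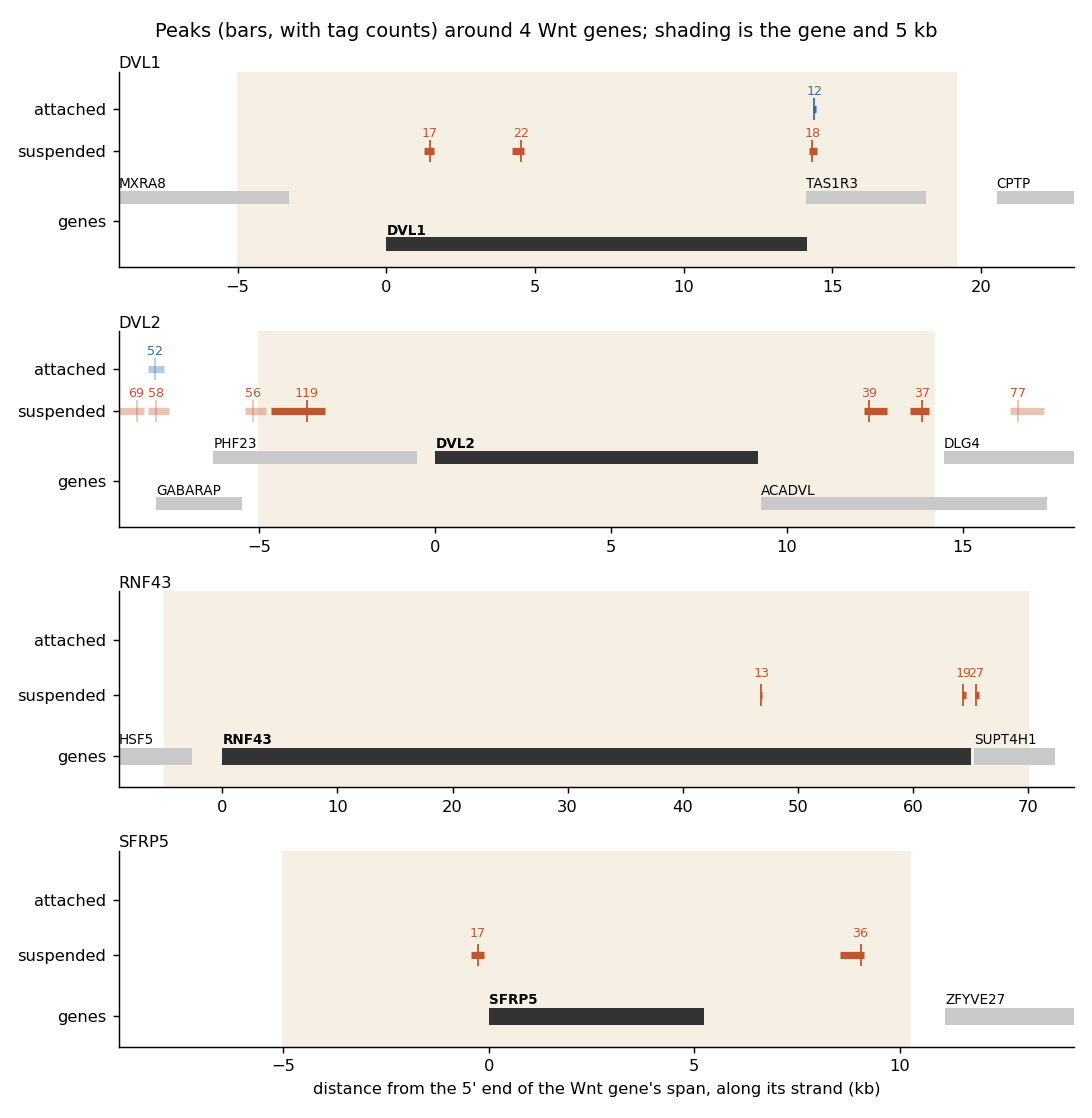
Suspended (orange) and attached (blue) peaks with their tag counts around DVL1, DVL2, RNF43 and SFRP5, in kb from the 5′ end of the Wnt gene along its strand; black bars are the Wnt gene, grey bars other protein-coding genes, and pale peaks lie outside the shaded gene and 5 kb. The 3 DVL2 peaks lie over PHF23 and ACADVL, and no DVL2 summit is inside DVL2.

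DVL2 had the peak with most tags among the Wnt genes. It held 119 tags (98.6 to 142) over 1522 bp on chromosome 17, 7237657 to 7239178, with a fold of 5.49, a score of 122.01 and an FDR of 0.26%. Its summit was 3655 bp before the DVL2 start, inside PHF23 and 758 bp after a PHF23 start. The other 2 lay beyond the 3′ end of DVL2, inside ACADVL, an enzyme gene of mitochondrial fatty acid oxidation, with 39 tags (27.7 to 53.3) and a fold of 4.43, and 37 tags (26.1 to 51.0) and a fold of 6.1. The nearest start to both was that of DLG4, relative to which they lay at -2120 and -632 bp. DVL3 differed: its 1 peak, with 21 tags (13.0 to 32.1), a fold enrichment of 6.11 at 3.11% FDR, lay inside the gene 1789 bp after its own start (chromosome 3, 184156879 to 184157278).

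In the destruction complex, GSK3B had its peak at the start, and AXIN1 and CTNNB1 had theirs within the gene. GSK3B had 27 tags (17.8 to 39.3), a fold of 6.9, a score of 79.25 and an FDR of 1.0% at 120094224 to 120094639 on chromosome 3. AXIN1, the scaffold of the complex, had the highest suspended fold of any Wnt gene, 14.9, but on 8 tags (3.45 to 15.8), the fewest of any member peak, with an FDR of 4.33%. That summit was 54021 bp after the start and 11262 bp from the other end (chromosome 16, 298616 to 298763). CTNNB1 had 13 tags (6.92 to 22.2), a fold enrichment of 7.67 at 4.38% FDR, 22001 bp inside the gene (chromosome 3, 41221447 to 41221680). Of the 4 nuclear factors TCF7 had a peak (25.0%, against 28.6% of all genes). The TCF7 peak held 13 tags (6.92 to 22.2) with a fold enrichment of 6.97 at 5.27% FDR. It lay 7554 bp after the nearest of the listed TCF7 starts (chromosome 5, 134131084 to 134131310). LEF1, TCF7L1 and TCF7L2 had none, although TCF7L1 and TCF7L2 span 177 and 217 kb.

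**Figure D3:**
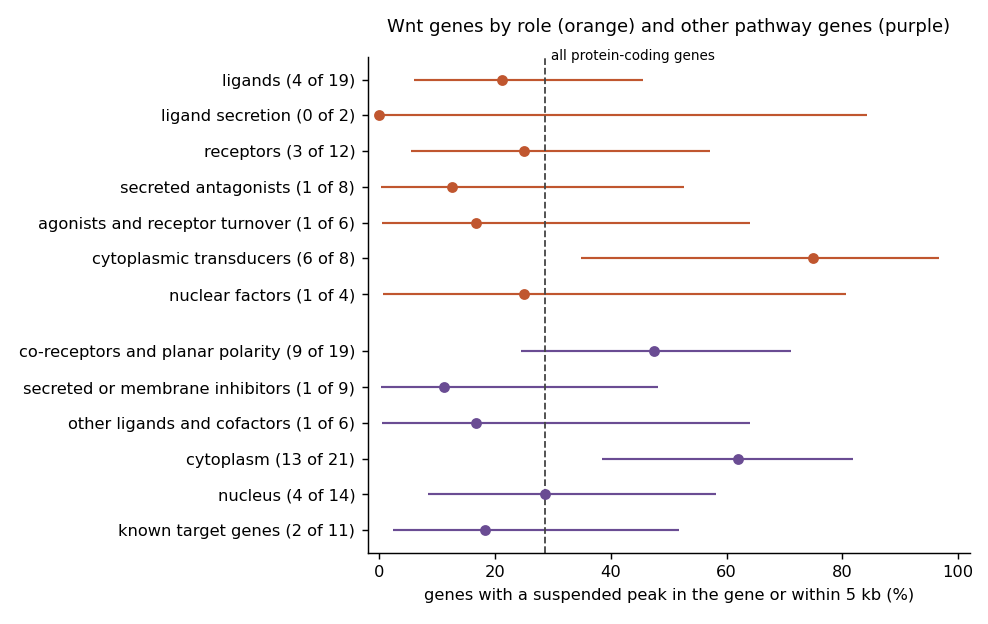
Share of genes with a suspended peak in the gene or within 5 kb, for the 7 roles of the Wnt genes and for 6 groups of other pathway genes, with Clopper-Pearson 95% intervals; the dashed line is the 28.6% of all protein-coding genes. The points of cytoplasmic transducers (6 of 8) and the other cytoplasmic genes (13 of 21) lie farthest to the right of the line. The line is not matched for gene span, and no test of roles was made. With summits inside the span only, the transducers give 4 of 8.

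Over all Wnt genes, 14 of the 23 suspended summits lay inside the member, 5 inside another protein-coding gene and not the member, and 4 in no protein-coding gene. Summits within 1 kb of either end of the gene were found at 6 of 59 members (10.2%, 3.82 to 20.8), namely DVL1, FZD1, GSK3B, RNF43, SFRP5 and WNT6, against 13.8% of all genes. In attached cells DVL1 was again the member (1.69%), against 0.809%. Within 1 kb of a listed start, where strand is known, the count was 4 of 43 (9.3%, 2.59 to 22.1), namely FZD1, GSK3B, SFRP5 and WNT6, against 14.7% of 15842 genes. For DVL1 and RNF43 the gene end with a peak was therefore the 3′ end. Of the 21 peaks at members with a known strand, 9 lay nearer to the start of another gene.

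Few summits lay near the distance limit. The farthest summits still counted were 4660 bp (DVL2) and 3797 bp (SFRP5) outside the gene, and the next members beyond the limit were APC at 7.32 kb, WNT4 at 8.74 kb, FZD2 at 9.41 kb and SFRP4 at 9.64 kb. The median distance from the 43 members without a suspended peak to the nearest summit was 103 kb, and 13 of them (30.2%) had a summit within 50 kb. For all protein-coding genes without a peak the median was 97.7 kb and the share 32.7%. FZD3 was the most remote, 5760 kb from a suspended summit.

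**Figure D4:**
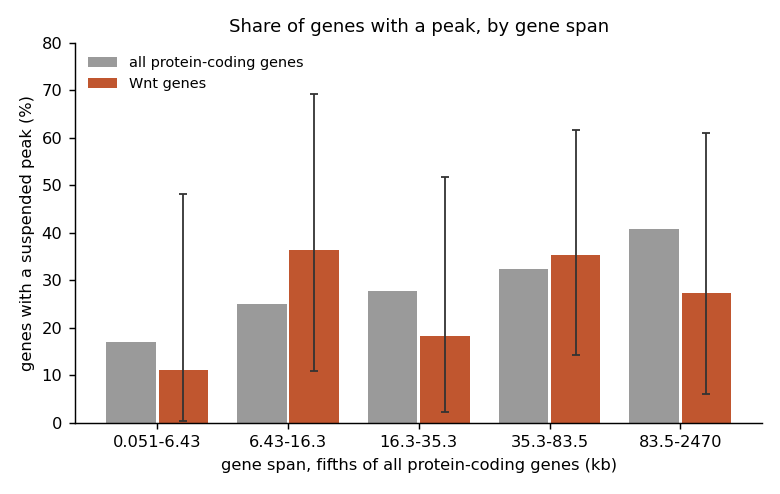
Share of genes with a suspended peak in 5 equal-sized classes of gene span (kb), for all protein-coding genes (grey) and Wnt genes (orange, with Clopper-Pearson 95% intervals). The grey bars climb from 17.1% to 40.8%. The orange intervals rest on 9 to 17 genes a class and are wide, and no test was made.

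Among all protein-coding genes the share with a suspended peak climbed with gene span, from 17.1% in the shortest class to 40.8% in the longest. The Wnt genes followed in part: 1 of 9 in the shortest class (SFRP5), 4 of 11 in the next (DVL1, DVL2, FZD1 and WNT6), 2 of 11, 6 of 17 and, among the longest, 3 of 11 (GSK3B, LRP5 and LRP6). If each Wnt gene had a peak as often as genes of its class, 17.3 would have one, and with 20 classes of span 17.7. The 16 observed are close to both. By family, the 3 DVL genes, of 9.18 to 18.2 kb, all had a peak, although the DVL2 summits lay outside that gene. The 4 RSPO genes, of 23.5 to 184 kb, had none. These families are small, and the part of span in their counts was not tested.

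**Figure D5:**
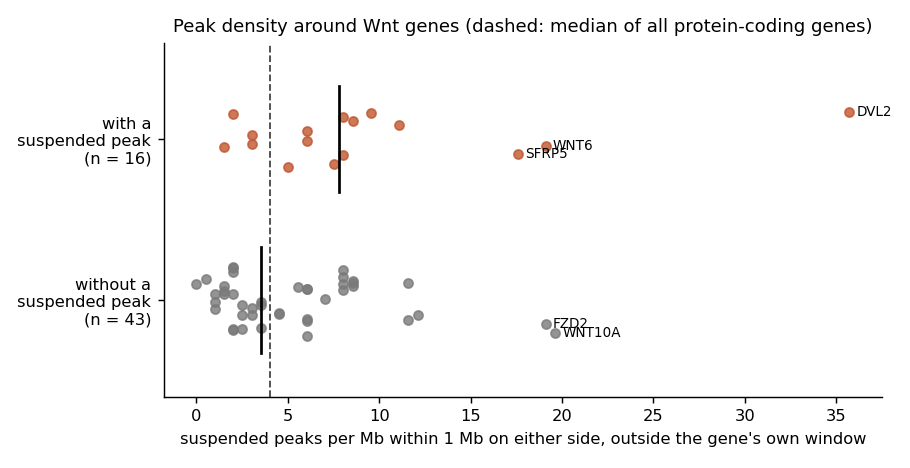
Suspended peaks per Mb within 1 Mb on either side of each Wnt gene, leaving out the gene and 5 kb around it; each point is a gene, black bars are medians and the dashed line is the median of all protein-coding genes. Genes with a peak have a median of 7.79 and those without 3.52, and DVL2 stands apart at 35.7.

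Wnt genes with a peak also sat among more peaks. The median density around the 16 genes was 7.79 suspended peaks per Mb (range 1.51 to 35.7) and around the 43 without a peak 3.52 (0 to 19.6), and the ranges overlapped. All protein-coding genes with a peak had a median of 5.53 and those without 3.52. DVL2 lay in the most crowded region of the members, with 35.7 per Mb, near the 38.7 that is the highest for any protein-coding gene, followed by WNT6 (19.1) and SFRP5 (17.6). WNT10A (19.6) and FZD2 (19.1) had similar surroundings and no peak. GSK3B (1.51), FZD1 (2.01), CTNNB1 (3.02) and WNT2B (3.02) had a peak in sparse surroundings. The part of local density in the counts, over all members or by role, was not tested.

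A further list of 80 pathway genes was counted by the same rule, and AXIN2 is in it as a target gene as well as a member. In suspended cells 30 had a peak (37.5%, 26.9 to 49.0), against 28.6% of all genes, and 11 had a summit within 1 kb of a gene end (13.8%, 7.07 to 23.3), against 13.8%. The share of 28.6% is not matched for gene span, and the counts that follow from span are given by group. Within this list cytoplasmic genes had the highest share, 13 of 21 (61.9%, 38.4 to 81.9), where 6.85 would follow from gene span. Counting only summits inside the span gave 11 of 21, while 20.4% of all genes had such a summit. The same upper part of the peaks by score as for the transducers gave 10 of 21, against 18.0% of all genes. The list was chosen with earlier results of these data known, so this share is not an independent check of the transducers. The cytoplasmic genes with a peak included casein kinase 1 genes, a family in which some members phosphorylate beta-catenin or Dishevelled. Summits lay within 1 kb of a gene end of CSNK1A1 (30 tags, fold 3.74), CSNK1D (82 tags, fold 5.63), CSNK1G2 (15 tags, fold 10.74) and CSNK1G3 (38 tags, fold 5.96). FBXW11, an F-box protein gene of the ligase that marks beta-catenin (16 tags, fold 7.53), and APC2 (28 tags, fold 9.1) also had a summit at a gene end. CXXC4, a Dishevelled-binding inhibitor gene, had the highest fold in the list, 19.87 on 11 tags, and the tankyrase gene TNKS had 14.9 on 9 tags, both inside the gene.

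Of 19 co-receptor and planar polarity genes 9 had a suspended peak (47.4%, 24.4 to 71.1), against 28.6% of all genes. They are long genes, with a median span of 112 kb, and 7.04 would follow from gene span. CELSR3, a polarity cadherin gene, was the other pathway gene with an attached peak (1 of 80, 1.25%, against 1.86%). It had 18 attached tags at an FDR of 100% and 44 suspended tags at an FDR of 0%, with folds of 9.97 and 14.05, and the depth-scaled ratio of 2.48 had a counting interval of 1.41 to 4.57. The suspended peak was again the wider, 490 against 272 bp, so these tags are not like for like. A summit within 1 kb of an end was present for CELSR3 (998 bp after a listed start in both conditions), PTK7 (30 tags, fold 5.26, 12 bp after its start) and KREMEN2 (23 tags, fold 9.36). The folds were 12.9 on 10 tags for CELSR1 and 12.03 on 11 tags for DAAM2, with summits farther from the ends. That CELSR1 summit lay in no protein-coding gene. PRICKLE1 had a fold of 16.39 on 14 tags with its summit inside the gene, at -719 bp relative to a listed PRICKLE1 start. The inhibitors held 1 of 9, the other ligands and cofactors 1 of 6, the nuclear cofactors 4 of 14 and the known target genes 2 of 11, where gene span gives 2.47, 1.91, 4.68 and 3.01. Among these, ADGRA2 (34 tags, fold 4.85 for the peak at a gene end) had 8 peaks in surroundings of 16.6 per Mb, MYC had 51 tags and a fold of 5.09 at a gene end, and TNFRSF19 had a fold of 12.42 on 8 tags.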

How the data were processed

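SPIB was mapped by ChIP-seq in 1 ChIP and 1 input library per condition. The authors' peak caller was MACS 1.4.2, run with the matching input as control, per the file headers (p cutoff 1e-05, band width 200 bp, tag size 50 bp, 1 tag kept per position). MACS modelled fragments of 58 bp in the attached and 63 bp in the suspended library, little longer than a tag, and the effect on summits and widths was not tested. The build is hg38, per the submitters' processing notes, with no aligner named in what was used here. The deposited tags are a count of ChIP tags per peak, not normalized. The deposited fold is a ratio to local background, the FDR is a percent, and the score is read as minus 10 times log10 of the p-value, from its range and place in MACS output, because its column name is garbled in the files. These last 3 values are the authors' own.

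Summits (start + summit - 1) were joined with RefSeq GRCh38.p14 gene spans and listed starts with pandas 2.3.3 and numpy 2.4.6 under Python 3.11.15. Intervals used SciPy 1.17.1 and figures matplotlib 3.10.9. Exons, introns and UTRs were not assigned. Strand came from the promoter table, which held 43 of 59 members. Poisson and Clopper-Pearson intervals are at 95% and cover counting error only. Genes are not independent replicates. The join was tested on simulated data. The members and lists were chosen with earlier results of these data known. Every member with a peak was named. Other pathway genes were named if they had a summit within 1 kb of a gene end or an attached peak, or were among 6 others of highest fold. Alternatives were FDR at most 5%, the upper 50% by score, any overlap, and other distances and overlaps.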

Additional observations from a re-analysis of the deposited data

How the results depend on the processing

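The count of 16 Wnt genes with a suspended peak ranged from 11 (upper 50% of the list by score) to 20 (summit within 10 kb), and the share of all protein-coding genes moved with it, from 18.0% to 32.2% against 18.6% and 33.9% of the Wnt genes. TCF7 lost its peak at an FDR of at most 5%. AXIN1, CTNNB1, SFRP5, TCF7 and WNT11 lost theirs in the upper 50%, and DVL2, GSK3B, SFRP5 and WNT11 with summits in the span only. APC, FZD2, SFRP4 and WNT4 gained one within 10 kb. The attached count of 1 became 0 at an FDR of at most 5%, because the attached DVL1 peak had an FDR of 82.39%. It was also 0 with summits in the span only, because that summit lay 247 bp outside DVL1. Within 10 kb it was 2, because an attached summit lay 7.96 kb from DVL2. The counts at gene ends (5 to 8), of other pathway genes (23 to 32) and of sites in both conditions (1) stayed within 1.5 times the reported value under every alternative run. Depth limits single peaks: the 8 tags at AXIN1 have a Poisson interval of 3.45 to 15.8 and the 21 at DVL3 one of 13.0 to 32.1, which overlap. No paired analysis was possible because each group had 1 library.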
